A study of Mus musculus with 4 samples.

Results

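Of the 32285 genes counted in 4 droplet libraries of mouse lung, 10 were taken as circadian clock genes by their symbols: the repressor nuclear receptors Nr1d1 and Nr1d2, the period genes Per1, Per2 and Per3, the cryptochrome Cry1, the output factors Dbp and Tef, and the activators Arntl and Clock. All 10 were found in each library, and a further 28 genes of the clock and its outputs were followed beside them. The mice were Galt gene-edited (GAL) in 2 libraries and wild-type (WT) in 2, and Galt encodes an enzyme of galactose use. Lung tissue was dissociated by enzymes, and single cells were counted in droplets by unique molecular identifiers (UMIs), which mark single captured RNA molecules. The strain, sex and age of the mice, the kind of edit and how animals map to libraries are not given in the sources used here, so every p-value measures the spread between these samples only. The labels give no hour of collection either, so the genotype and the hour at which a lung was taken cannot be told apart in any result on clock genes.

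The mammalian clock is a feedback loop in which ARNTL (BMAL1) and CLOCK bind E-box elements and switch on the genes of the PER and CRY proteins, which then block that pair. The same pair drives Nr1d1 and Nr1d2, whose products (REV-ERB alpha and beta) compete with ROR proteins at ROR elements and repress Arntl, so that Arntl peaks at the opposite time of day from Nr1d1. It also drives Dbp, and DBP and TEF are leucine zipper factors that act through D-box elements, as in Per3. In the lung the clock is known from club cells, fibroblasts, endothelium and macrophages, where REV-ERB alpha restrains inflammatory genes.

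The 4 libraries held 56218178 to 62406681 UMIs, and 10757 to 13515 cells of each passed the filters, with a median of 2361 to 3709 UMIs per cell. GAL replicate 1 stood apart: it had the highest median UMI count, 16.4% of its cells carried markers of 2 lineages against 3.39% to 5.42% in the others, and its shares of epithelial cells (4.25% against 0.297% to 0.940%) and stromal cells (12.0% against 4.99% to 5.85%) were the highest. Cells were sorted into 24 gates by marker genes that hold no clock gene, 14 of which had at least 50 cells in every library. Each gate had 2 or more of its own 6 markers, and none of another gate, among its 10 leading genes. The gates were set by these markers, so this follows in part from the rule and does not test the gates. Of cell barcodes, 92 to 115 were shared by any pair of libraries. Galt itself stood at 13.4 and 10.6 counts per 1000000 (CPM) in the GAL libraries and 11.4 and 11.4 in WT (log2 fold change 0.05 ± 0.18 SE, edgeR quasi-likelihood test, adjusted p = 0.952), and with the kind of edit not given, its level does not check the labels.

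Promoter windows of 9 of the 10 genes were read from RefSeq (build GRCm38.p6), as 300 bases from 250 before to 50 after a start site, because the loop described above runs through short elements in such windows. Both strands of 14 windows were searched for the E-box CACGTG, the D-boxes TTATGTAA and TTACGTAA, and the ROR cores AGGTCA and GGGTCA. The window of Per3 (chr4:151044616-151044915, minus strand) held TTATGTAA at 205 and again at 158 bases before the start. Windows of Tef (chr15:81802423-81802722, plus strand) and Cry1 (chr10:85185005-85185304, minus strand) held CACGTG, 127 and 60 bases before it. Windows of Nr1d2 (chr14:18239057-18239356, minus strand) and Arntl (chr7:113207261-113207560, plus strand) held AGGTCA, 77 bases before the start and at position 282 of the window. These 5, each of which held an element, are shown 5′ to 3′ on the strand of the gene, and capitals mark the element. Their genes are among those compared between libraries below.
Per3: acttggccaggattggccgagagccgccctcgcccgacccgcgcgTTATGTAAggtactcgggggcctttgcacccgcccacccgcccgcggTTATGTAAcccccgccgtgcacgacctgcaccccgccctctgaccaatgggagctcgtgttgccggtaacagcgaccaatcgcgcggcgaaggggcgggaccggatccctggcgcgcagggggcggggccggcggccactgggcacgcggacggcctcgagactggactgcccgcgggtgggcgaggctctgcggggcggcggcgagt
Tef: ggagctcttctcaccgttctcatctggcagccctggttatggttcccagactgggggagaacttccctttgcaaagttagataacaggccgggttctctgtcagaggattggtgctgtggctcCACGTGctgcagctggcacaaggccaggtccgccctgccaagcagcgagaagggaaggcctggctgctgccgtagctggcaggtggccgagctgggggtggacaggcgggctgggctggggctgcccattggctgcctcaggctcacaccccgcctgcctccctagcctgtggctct
Cry1: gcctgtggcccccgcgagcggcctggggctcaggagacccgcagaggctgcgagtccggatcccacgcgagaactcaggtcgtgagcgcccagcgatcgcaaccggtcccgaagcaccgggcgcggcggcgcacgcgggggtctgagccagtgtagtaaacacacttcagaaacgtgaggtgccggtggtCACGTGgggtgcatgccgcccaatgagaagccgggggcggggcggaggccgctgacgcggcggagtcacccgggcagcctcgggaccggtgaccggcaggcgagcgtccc
Nr1d2: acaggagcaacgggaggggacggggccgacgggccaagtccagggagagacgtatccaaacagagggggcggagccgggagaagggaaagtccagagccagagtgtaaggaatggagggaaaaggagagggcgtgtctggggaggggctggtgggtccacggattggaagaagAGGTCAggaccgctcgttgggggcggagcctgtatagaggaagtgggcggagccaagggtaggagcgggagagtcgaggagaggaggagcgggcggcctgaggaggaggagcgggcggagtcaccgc
Arntl: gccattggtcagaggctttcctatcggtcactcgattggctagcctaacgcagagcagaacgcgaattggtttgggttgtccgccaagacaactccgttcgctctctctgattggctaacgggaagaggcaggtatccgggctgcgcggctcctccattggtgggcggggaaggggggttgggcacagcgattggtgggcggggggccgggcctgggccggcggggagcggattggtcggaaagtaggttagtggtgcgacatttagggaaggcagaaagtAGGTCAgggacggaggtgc
Another Tef window and 1 of Per1 also held CACGTG, and windows of Per1 and Clock held AGGTCA on the opposite strand. The windows of Nr1d1 and Dbp held none of these letters, nor did any window hold GGGTCA. Of all 32851 windows in the table, 7.15% held CACGTG, 1.06% a D-box, 16.3% AGGTCA and 13.7% GGGTCA. A match in a window is a description of its letters and not a site of binding.

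The level of each clock gene was first compared among the 14 gates, in CPM scaled by the trimmed mean of M-values (TMM), with each gate set against the equally weighted mean of the other gates (edgeR, library as a term, adjusted over 12512 genes and called under 0.05). The repressor Nr1d1 (11:98767932-98775333, minus strand, GRCm38) was highest in both fibroblast gates. In alveolar fibroblasts, the matrix cells of the alveolar wall, it stood at 172 and 256 CPM in GAL replicates 1 and 2 and at 138 and 166 CPM in the WT libraries. In adventitial fibroblasts, which lie around vessels and airways, the values were 129, 240.0, 83.1 and 76.1 CPM in the same order. GAL replicate 2 was highest in both gates, and the ranges of the gates overlapped. Against the other gates Nr1d1 was higher by 4.09 ± 0.17 in alveolar fibroblasts and by 3.61 ± 0.18 in adventitial fibroblasts on the log2 scale (edgeR adjusted p = 3.96e-29 and 4.61e-25), and by 1.54 ± 0.22 in general capillary endothelial cells (adjusted p = 1.39e-08). Interstitial and alveolar macrophages were also above the other gates, by 1.08 ± 0.26 and 0.88 ± 0.20 (edgeR adjusted p = 0.000563 and 0.000105), and aerocytes, the gas-exchange capillary cells, did not pass (0.48 ± 0.40). Nr1d1 was lowest in type 1 dendritic cells at a mean of 1.68 CPM, 2.96 ± 0.62 below the other gates (edgeR adjusted p = 6.87e-05). That mean rests on 1, 4, 0 and 2 UMIs in GAL 1, GAL 2, WT 1 and WT 2, so the fold given next is imprecise. From the highest gate to the lowest the mean level of Nr1d1 differed 109-fold, yet in each of the 13 neighbouring pairs of the order the library ranges overlapped. Its end overlaps the end of Thra on the opposite strand (263 exon bases shared), and the sources used here do not say whether counting used strand. Thra stood at 119.6 to 196 CPM in both fibroblast gates and at 143 to 228 CPM in general capillary endothelial cells. The part of the overlap in the counts of Nr1d1 was not tested. Nr1d2 (14:18204054-18239127) was spread more widely. Its mean was 52.4 CPM in adventitial fibroblasts, 48.7 in alveolar fibroblasts, 42.3 in natural killer (NK) cells and 41.0 in T cells, and 2.11 in neutrophils, which were 2.89 ± 0.35 below the other gates (edgeR adjusted p = 1.79e-10).

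**Figure D1:**
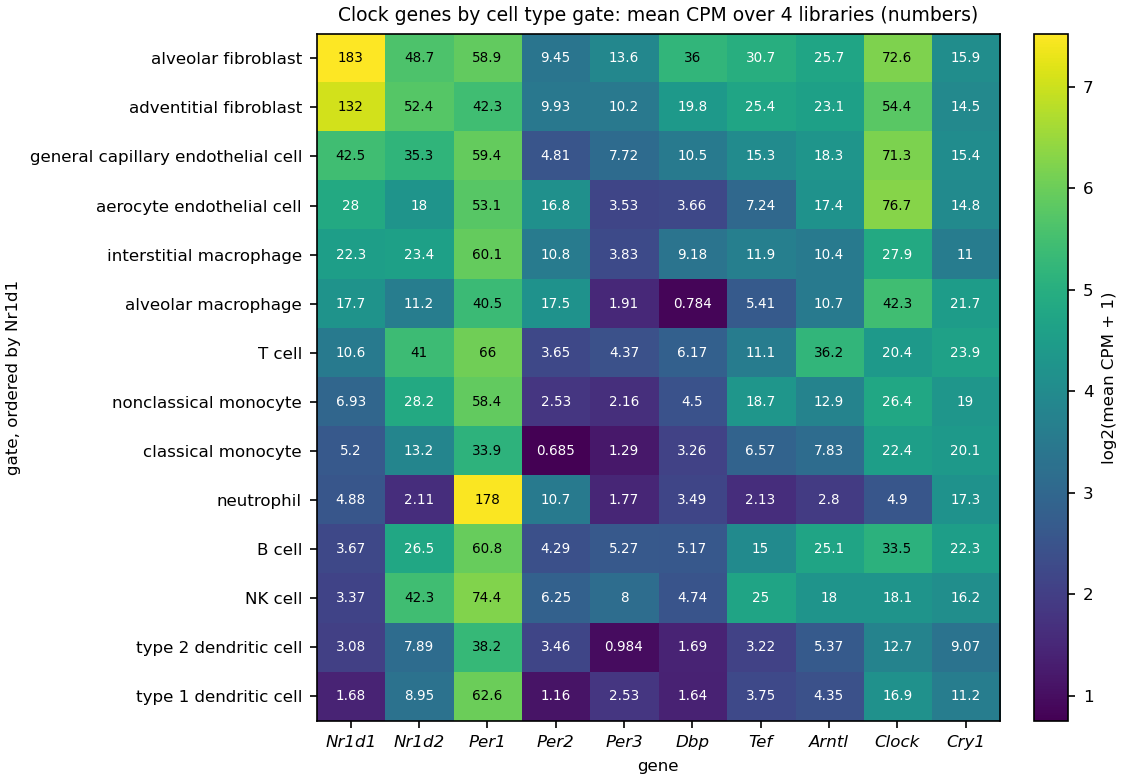
Mean CPM of the 10 clock genes (columns) in the 14 cell type gates (rows, ordered by Nr1d1), with the mean over 4 libraries printed in each cell and log2(mean CPM + 1) as colour. Nr1d1 runs from 183 CPM in alveolar fibroblasts to 1.68 in type 1 dendritic cells, while the brightest cell of Per1 is the neutrophil gate at 178 CPM.

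The period genes did not follow one pattern. Per1 (11:69095217-69109960), which besides its clock role is induced quickly by stimuli, was highest in neutrophils, at 212 and 162 CPM in the GAL libraries and 170.4 and 167 CPM in WT. All 4 neutrophil values lay above the highest value of the next gate, NK cells at 48.4 to 98.6 CPM, and the neutrophil gate was 2.34 ± 0.11 above the others (edgeR adjusted p = 3.1e-26). Per2 (1:91415982-91459324) was highest in alveolar macrophages, at 22.1, 12.3, 15.3 and 20.3 CPM in GAL 1, GAL 2, WT 1 and WT 2 (1.91 ± 0.14 above the others, edgeR adjusted p = 9.56e-18), and its mean in aerocytes was 16.8 CPM with overlapping ranges. Among the 14 tested gates, Per3 (4:151003652-151044665) was highest in alveolar fibroblasts, with a mean of 13.6 ± 9.33 CPM (SD, n = 4). Its libraries ran from 6.82 to 27.1 CPM there. Cry1 (10:85131700-85185064) varied least among gates, from 9.07 CPM in type 2 dendritic cells to 23.9 in T cells, 2.63-fold.

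Among the output factors, Dbp (7:45705088-45710203) was highest in alveolar fibroblasts, at 17.5 and 84.0 CPM in the GAL libraries and 12.3 and 30.1 CPM in WT. That gate was 2.68 ± 0.24 above the others (edgeR adjusted p = 1.52e-14), and alveolar macrophages, at 0.475 to 0.989 CPM, were 2.55 ± 0.35 below (adjusted p = 7.86e-09). GAL replicate 2 was the highest library in the 3 gates with the most Dbp, and 12 of 13 neighbouring pairs overlapped. The end of Dbp shares 539 exon bases with Sphk2 on the other strand. Tef (15:81802421-81826863) had its highest means in alveolar fibroblasts (30.7 CPM), adventitial fibroblasts (25.4) and NK cells (25.03) and its lowest in neutrophils (2.13), with overlap in all 13 neighbouring pairs.

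The activators parted from each other. Arntl (7:113207465-113314126) was highest in T cells, at 28.6, 48.9, 39.7 and 27.3 CPM in GAL 1, GAL 2, WT 1 and WT 2 (1.78 ± 0.15 above the others, edgeR adjusted p = 4.93e-16). It was low in neutrophils at 0.939 to 6.06 CPM, from 2 or 3 UMIs per library (2.12 ± 0.46 below, edgeR adjusted p = 7.39e-05). Clock (5:76209868-76304792) was highest in aerocytes (mean 76.7 CPM), alveolar fibroblasts (72.6) and general capillary endothelial cells (71.3) and lower in T cells (0.41 ± 0.12 below the others, edgeR adjusted p = 0.00297). It was the member with the clearest order, with only 9 of 13 neighbouring pairs overlapping, and its 2.39 to 8.08 CPM in neutrophils overlapped only the range of NK cells, from 6.39 CPM (neutrophils 2.27 ± 0.26 below the others, adjusted p = 6.12e-11).

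By gate, 8 of the 10 genes were higher in alveolar fibroblasts and none lower, the exceptions being Per1 and Cry1, where 37.5% of all genes were higher and 29.5% lower. In adventitial fibroblasts 8 were higher and 1, Per1, lower, beside 35.5% and 30.1% of all genes. General capillary endothelial cells had 4 higher (Nr1d1, Nr1d2, Per3 and Clock) and 2 lower (Per1 and Cry1), beside 36.9% and 26.6%. T cells had 4 higher (Nr1d2, Per1, Cry1 and Arntl) and 1 lower (Clock), beside 38.9% and 25.7%. Alveolar macrophages had 4 higher (Nr1d1, Per2, Cry1 and Clock) and 5 lower (Nr1d2, Per1, Per3, Dbp and Tef), beside 43.6% and 23.5%. Neutrophils had 3 higher (Per1, Per2 and Cry1) and 4 lower (Nr1d2, Tef, Arntl and Clock), beside 27.4% and 34%. No member was higher in either dendritic cell gate, where 6 were lower in each, beside 26% of all genes higher and 21.8% lower in type 1 and 28.1% and 22.3% in type 2 cells. Nr1d1, Nr1d2, Tef, Arntl and Clock were lower in both. In T cells the share called higher was thus close to that of all genes, while in the fibroblast gates it was above it.

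GAL was then compared with WT over all kept cells of the lung. Nr1d1 stood at 52.8 and 47.9 CPM in GAL replicates 1 and 2 and at 21.8 and 26.6 CPM in the WT libraries, a log2 fold change of 1.06 ± 0.17 that missed the threshold (edgeR adjusted p = 0.768) and passed it by DESeq2 (1.03, adjusted p = 0.0238). Both GAL libraries lay above both WT libraries. On simulated data, DESeq2 made 54 false calls over the whole lung and edgeR 4. In sums over a whole tissue, fewer cells of a type and less RNA per cell cannot be told apart. Tef stood at 16.4 and 14.5 CPM against 9.87 and 11.2 (0.55 ± 0.19), and Dbp at 6.61 and 12.4 against 4.09 and 5.58 (0.97 ± 0.38). For both genes the groups did not overlap, and neither passed by edgeR or DESeq2.

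The other members differed less in the whole lung. Log2 fold changes were 0.29 ± 0.17 for Nr1d2, 0.38 ± 0.22 for Per3, 0.18 ± 0.16 for Arntl, 0.04 ± 0.19 for Clock, -0.08 ± 0.19 for Per1, -0.18 ± 0.21 for Per2 and -0.22 ± 0.18 for Cry1. By edgeR, 0 of 10 members were called, as were 0% of 16821 genes, and 2 members (Nr1d1 and Tef) had an unadjusted p under 0.05, beside 718 genes higher and 200 lower. By DESeq2, Nr1d1 was the only member among the 29 genes called (0.191% of 15148). Both GAL libraries were above both WT libraries for 6 members (Nr1d1, Nr1d2, Per3, Dbp, Tef and Arntl), where 20.1% of all genes showed this, and below them for 1, Cry1, where 18% did. The median log2 fold change was 0.23 over the members and 0.01 over all genes tested.

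Among the 28 further clock genes none was called by edgeR or had an unadjusted p under 0.05, and their median log2 fold change was 0.08. In the core loop, those of lowest p included Cry2 (0.42 ± 0.25), Ciart (0.44 ± 0.27) and Nfil3, a repressor at D-boxes (-0.27 ± 0.19). Of the kinases, ligases and corepressors they were Nono (-0.20 ± 0.16), Gsk3b (0.12 ± 0.16) and Fbxl21 (0.36 ± 0.51). Of the rhythmic outputs they were Tspan4 (0.48 ± 0.19), Rbm3, a cold-induced RNA-binding protein (-0.26 ± 0.16), Por (0.33 ± 0.21) and Noct, a nocturnin that acts on nicotinamide cofactors (-0.24 ± 0.17).

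The cells that gave the Nr1d1 counts differed between libraries. Stromal cells gave 35.6%, 34.9%, 29.7% and 31.9% of the Nr1d1 UMIs of GAL 1, GAL 2, WT 1 and WT 2, and myeloid cells 5.51%, 14.8%, 26.4% and 28.5%. Cells with markers of 2 lineages gave 35.3% and 23.8% of them in GAL and 12.5% and 16.0% in WT. For the other members, such cells gave 24.6% (Nr1d2) to 33.7% (Tef) of the UMIs in GAL 1. In the other libraries they gave 4.28% to 18.8%, so the high share in GAL 1 was not particular to Nr1d1. For equal composition, 5768 cells per library were drawn from the 14 tested gates, each gate at the same number of cells in every library. That number differed between gates, and cells outside these gates were left out, among them those with markers of 2 lineages. Nr1d1 was then at 27.1 CPM in GAL 1 and at 47.9 in GAL 2, against 21.6 and 27.3 in WT. GAL 1 was then between the WT libraries, and the fold change was 0.62 ± 0.28. Dbp was at 4.39 and 12.0 CPM against 4.14 and 6.22. With equal composition 2 members, Tef and Arntl, were above WT in both GAL libraries, beside 15.9% of all genes. By edgeR, 0% of 14965 genes and no member were called, and no member had an unadjusted p under 0.05. Nr1d1, which DESeq2 called over all kept cells, was not called by it here (0.61, DESeq2 adjusted p = 0.9999).

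**Figure D2:**
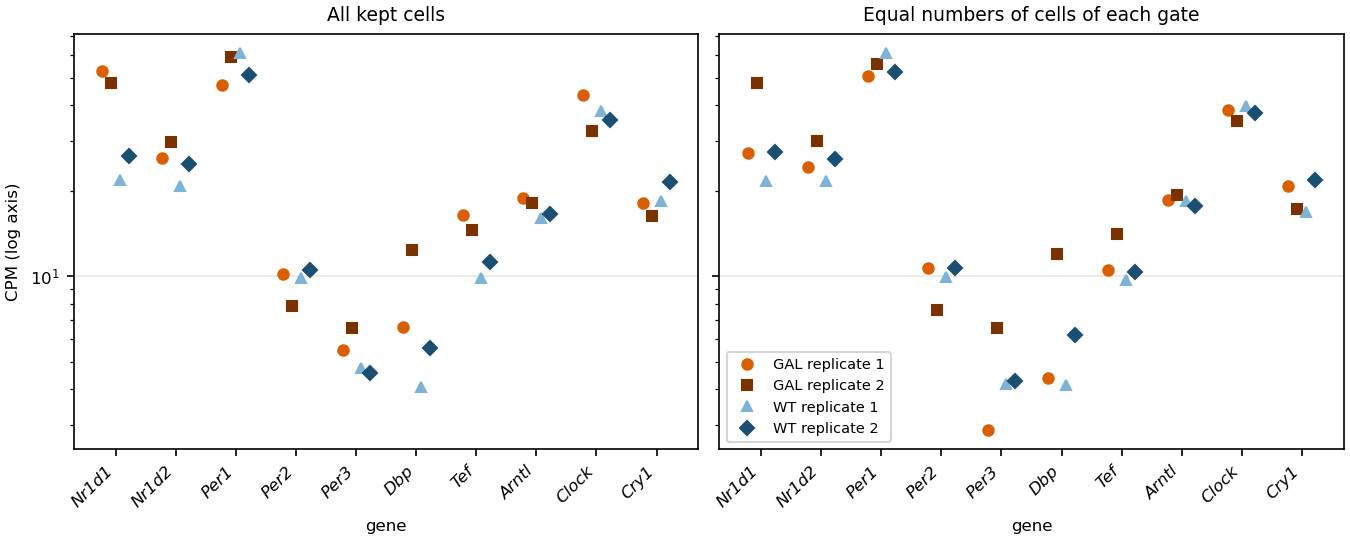
CPM (log axis) of the 10 clock genes in each library (points). All kept cells are on the left, and on the right each tested gate has the same number of cells in every library. The GAL replicate 1 point of Nr1d1 is at 52.8 CPM on the left and, between the WT points, at 27.1 CPM on the right, while that of GAL replicate 2 is at 47.9 CPM in both.

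Within gates, the same test asked whether GAL and WT differed in cells of one kind. In the 14 gates 0 members were called by edgeR. Genes called were 0% in T cells, NK cells, B cells, alveolar and interstitial macrophages, classical monocytes, both dendritic cell gates, neutrophils and both fibroblast gates, 0.356% in nonclassical monocytes, 0.0294% in general capillary endothelial cells and 0.0488% in aerocytes. Unadjusted p was under 0.05 for 3 members in adventitial fibroblasts, 2 in alveolar fibroblasts, 1 in general capillary endothelial cells and 0 elsewhere, and DESeq2 called no member in any gate. The share of all genes with such a p within gates is not reported here, so no such count can be read as an excess. The filter on low counts was passed by all 10 members in 7 gates and by 2 to 6 in the other 7, so members at low counts were not tested there. In adventitial fibroblasts Nr1d1 gave 1.20 ± 0.28 (edgeR adjusted p = 0.744). A test of whether the difference between GAL and WT varies with the gate, added after the data were seen, called no member, beside 0% of 12512 genes.

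The GAL libraries differed from each other in both fibroblast gates and in general capillary endothelial cells, the stromal and endothelial gates in which all 10 members passed the filter. In alveolar fibroblasts Dbp stood at 84.0 CPM in GAL replicate 2 and at 17.5 in GAL replicate 1, against 12.3 and 30.1 in WT. In adventitial fibroblasts the same library had 47.4 CPM, against 11.2 in GAL 1 and 8.75 and 12.1 in WT. In general capillary endothelial cells it had 22.4 CPM, against 2.19, 11.2 and 6.31. GAL replicate 2 was thus highest for Dbp in each of the 3 gates, and GAL replicate 1 lay within or below the WT range in each.

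The repressor Nr1d1 was also highest in GAL replicate 2 in these gates, but in both fibroblast gates GAL replicate 1 lay above both WT libraries too, at 172 CPM against 138 and 166 in alveolar and at 129 CPM against 83.1 and 76.1 in adventitial fibroblasts. In general capillary endothelial cells it stood at 96.6 CPM in GAL 2, against 20.6 in GAL 1 and 30.0 and 22.9 in WT. Nr1d2 had 65.3 CPM in alveolar fibroblasts of GAL 2, against 54.1 in GAL 1 and 40.3 and 35.2 in WT. In aerocytes, where Nr1d1 was below the filter and not tested, it stood at 70.0 CPM (17 UMIs) in GAL 2, against 14.2, 14.7 and 13.2 CPM (13, 5 and 7 UMIs) in GAL 1, WT 1 and WT 2. Tef had 28.4 CPM in general capillary endothelial cells of GAL 2, against 7.82, 14.4 and 10.6. The direction was the same for Per3, which had 27.1 CPM in alveolar fibroblasts of GAL 2, against 7.88, 6.82 and 12.8, and 18.8 CPM in adventitial fibroblasts, against 3.99, 8.75 and 9.06.

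The activator Arntl ran the other way. It stood at 9.72 CPM in alveolar fibroblasts of GAL 2, against 30.8 in GAL 1 and 25.2 and 37.2 in WT, and at 10.4 CPM in adventitial fibroblasts, against 29.9, 20.1 and 32.0. Cry1 was also lowest there, at 9.72 CPM in alveolar fibroblasts of GAL 2, against 20.8, 15.0 and 17.9. In the 3 gates GAL 2 was lowest for 3 members, Cry1, Arntl and Clock, where it was lowest for 28.7%, 27.7% and 26.9% of all genes tested in alveolar fibroblasts, adventitial fibroblasts and general capillary endothelial cells. It was highest for 7, 5 and 5 members, Nr1d1, Nr1d2, Per3, Dbp and Tef in each and Per1 and Per2 in alveolar fibroblasts besides, where it was highest for 29.3%, 27.6% and 27% of all genes. Per1 and Per2 showed no such gap: Per1 ranged from 49.3 to 72.2 CPM and Per2 from 8.90 to 9.72 CPM in alveolar fibroblasts.

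**Figure D3:**
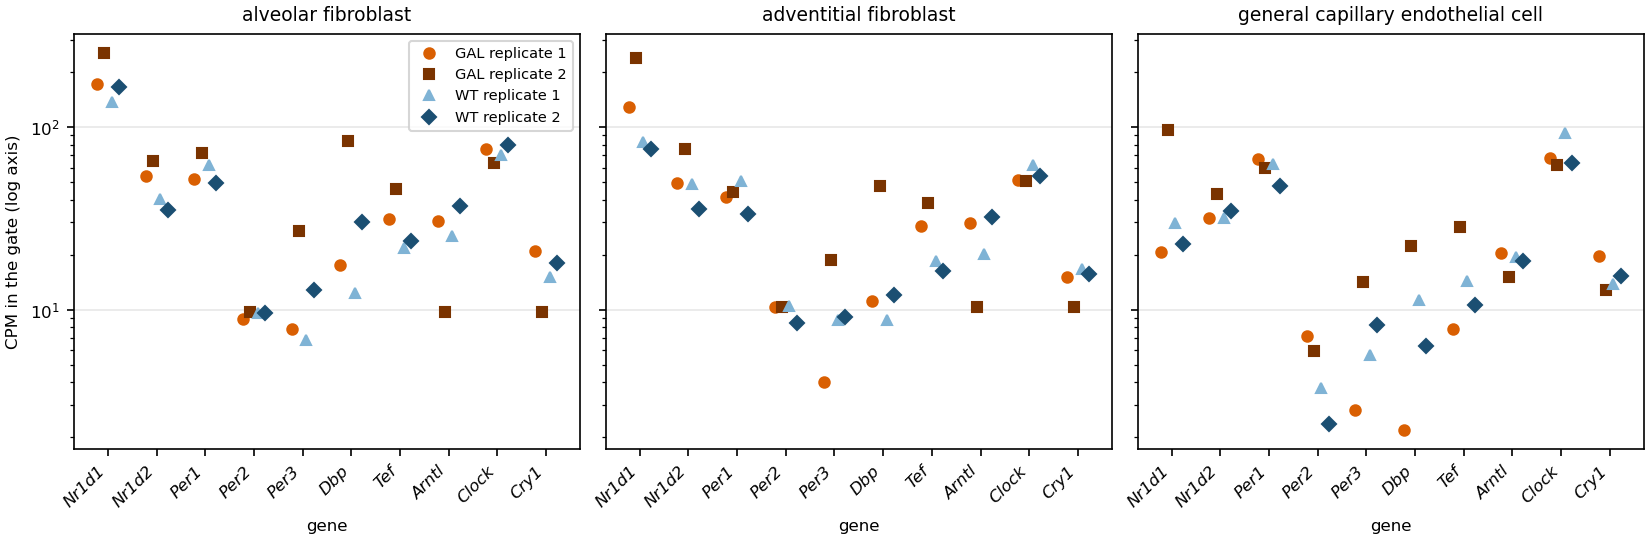
CPM (log axis) of the 10 clock genes in each library (points) within alveolar fibroblasts, adventitial fibroblasts and general capillary endothelial cells. The GAL replicate 2 point is the highest for Nr1d1, Nr1d2, Per3, Dbp and Tef and the lowest for Cry1, Arntl and Clock in all 3 panels.

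Each GAL library was set against both WT libraries on its own, an alternative in which the single GAL library is assumed to vary as the WT libraries do. With GAL replicate 2 alone, Dbp was higher by 1.96 ± 0.31 in alveolar fibroblasts and by 2.13 ± 0.35 in adventitial fibroblasts (edgeR adjusted p = 1.48e-07 and 1.1e-06). Nr1d1 was higher by 1.59 ± 0.25 in adventitial fibroblasts and by 1.89 ± 0.26 in general capillary endothelial cells (edgeR adjusted p = 1.73e-07 and 6.56e-07), and Per3 by 1.43 ± 0.42 in alveolar fibroblasts (adjusted p = 0.0499). Arntl was lower by 1.69 ± 0.43 in alveolar fibroblasts (edgeR adjusted p = 0.00987), and its value of -1.37 ± 0.42 in adventitial fibroblasts missed the threshold (adjusted p = 0.0759). Members called were thus 3 in alveolar fibroblasts, 2 in adventitial fibroblasts and 1 in general capillary endothelial cells, beside 1.49%, 1.1% and 0.922% of all genes. Such a test compares 1 library with 2 and says nothing of the genotype.

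With GAL replicate 1 alone, edgeR called 0 members in the 3 gates, beside 0.379%, 0.389% and 0.995% of all genes in alveolar fibroblasts, adventitial fibroblasts and general capillary endothelial cells. Unadjusted p was under 0.05 for none in alveolar fibroblasts, for Nr1d1 (0.70 ± 0.25) and Tef (0.74 ± 0.35) in adventitial fibroblasts, and for Per3 (-1.33 ± 0.66) and Dbp (-1.92 ± 0.67) in general capillary endothelial cells. In that endothelial gate the values of Nr1d1, Per3, Dbp and Tef had opposite signs in the GAL libraries, and that difference between 2 libraries of a group has no test here.

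**Figure D4:**
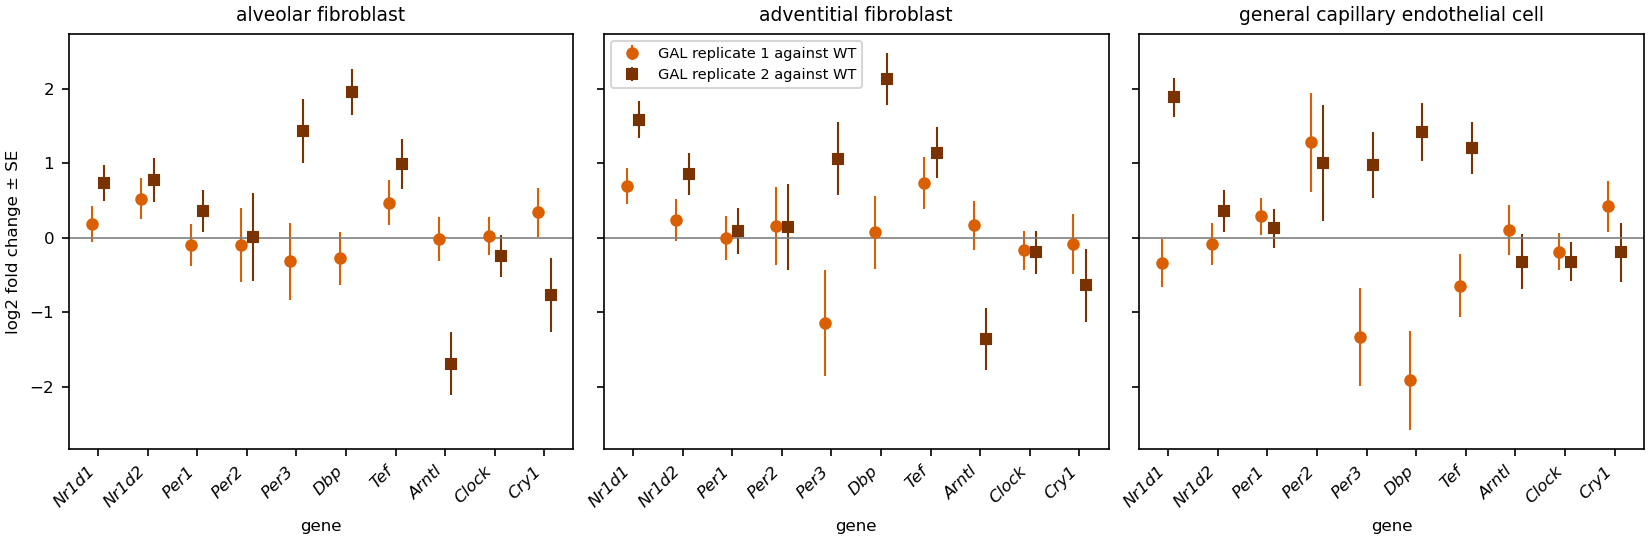
Log2 fold change (bars, SE of the edgeR fit) of the 10 clock genes for each GAL library alone against both WT libraries, in 3 gates. Dbp, Per3 and Nr1d1 of GAL replicate 2 lie above 0 in every panel, and in general capillary endothelial cells Dbp is at 1.42 in GAL replicate 2 and at -1.92 in GAL replicate 1.

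Clock phase was read as the log2 level of Nr1d1, Dbp or Per3 minus that of Arntl in the same library, since these genes peak at opposite hours and the scaling of a library cancels. The size of the value depends on the genes, so it was read only between libraries, and no test was made. In alveolar fibroblasts Dbp minus Arntl was -0.80 in GAL 1, 3.02 in GAL 2, -1 in WT 1 and -0.30 in WT 2. In adventitial fibroblasts the values were -1.39, 2.12, -1.13 and -1.36, and in general capillary endothelial cells -3.04, 0.56, -0.75 and -1.50. GAL replicate 2 stood apart from the other 3 libraries in each gate, and GAL replicate 1 stood with WT in both fibroblast gates and lowest in the endothelial gate.

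The counts behind these values were small, with 121 UMIs of Dbp and 14 of Arntl in alveolar fibroblasts of GAL 2. Their ratio was 8.64 with a 95% interval of 4.96 to 16.3, which covers counting error only, and the intervals of the other libraries lay between 0.261 and 1.21. Nr1d1 minus Arntl was also highest in GAL 2, with another order of the other libraries: 2.47, 4.62, 2.42 and 2.14 in alveolar fibroblasts, 2.09, 4.45, 2.00 and 1.23 in adventitial fibroblasts, and 0.02, 2.64, 0.61 and 0.30 in general capillary endothelial cells, in GAL 1, GAL 2, WT 1 and WT 2. Per3 minus Arntl was 1.42 in GAL 2 in alveolar fibroblasts and -1.93 to -1.49 in the others. In aerocytes, with 11 UMIs of the pair in the library with fewest, Nr1d1 minus Arntl was 2.17 in GAL 2 and -0.51 to -0.22 in the others.

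T cells and macrophages had no such gap. In T cells Dbp minus Arntl was -2.16, -2.83, -2.55 and -2.42 in GAL 1, GAL 2, WT 1 and WT 2, with GAL 2 the lowest. Nr1d1 minus Arntl was -1.65, -1.56, -1.75 and -2.37 there, and Per3 minus Arntl -3.88, -2.76, -2.80 and -3.07. For both, GAL 2 was the highest, close to the next library. In alveolar macrophages Nr1d1 minus Arntl was 0.52, 0.83, 0.37 and 1.01, and in interstitial macrophages 0.21, 0.93, 0.85 and 1.97, with WT 2 the highest in both. Of gates with at least 20 UMIs of the pair in every library, GAL 2 was highest in 5 of 7 for Nr1d1, 4 of 7 for Dbp and 4 of 6 for Per3. Over all kept cells Nr1d1 minus Arntl was 1.48, 1.41, 0.44 and 0.68, with both GAL libraries high, and with equal composition it was 0.55, 1.31, 0.23 and 0.62, with GAL 2 alone high.

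**Figure D5:**
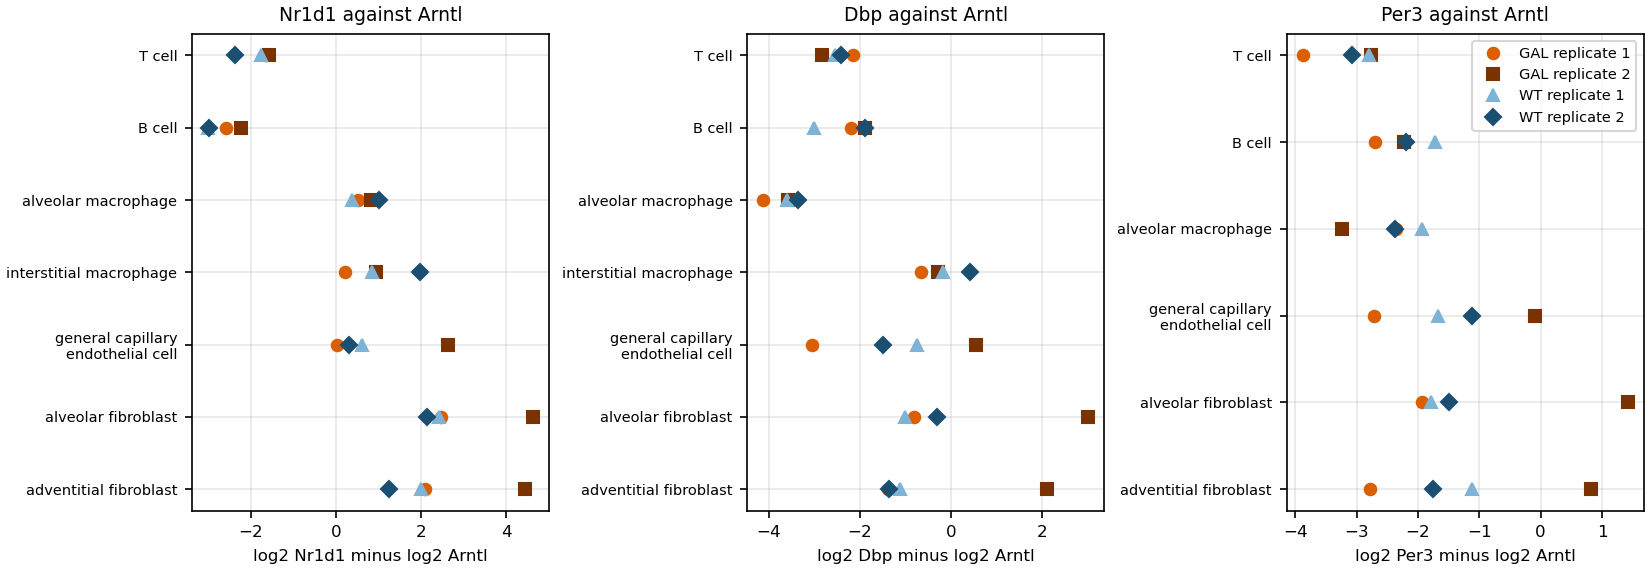
Log2 level of Nr1d1, Dbp or Per3 minus that of Arntl (horizontal axis) for each library (points) in gates (rows) with enough counts. The GAL replicate 2 point lies to the right of the other libraries in both fibroblast gates and in general capillary endothelial cells, at 3.02, 2.12 and 0.56 for Dbp. In T cells it is the lowest for Dbp, at -2.83, and the highest for Nr1d1 and Per3, at -1.56 and -2.76.

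GAL replicate 2 also stood apart for some of the further clock genes in these gates, and none of the 28 was called by edgeR between GAL and WT there. Nfil3, which represses at D-boxes, stood at 49.99 CPM in alveolar fibroblasts of GAL 2, against 135, 157 and 140 CPM in GAL 1, WT 1 and WT 2, and at 53.2 CPM in adventitial fibroblasts, against 118, 108 and 120 CPM. Npas2, which can stand in for CLOCK, was at 6.49 CPM in adventitial fibroblasts of GAL 2, against 13.2, 17.5 and 17.5. Hlf, a relative of DBP and TEF, was at 57.1 CPM there, against 32.7, 38.5 and 31.4. Cirbp, a cold-induced RNA-binding protein, was at 66.7, 44.1 and 76.4 CPM in alveolar fibroblasts, adventitial fibroblasts and general capillary endothelial cells of GAL 2, against 19.2 to 46.1 CPM in the other libraries of these gates. These 4 genes were chosen after their values were seen.

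Other gene groups also moved with GAL replicate 2 in these gates, and their part in the result was not tested. The summed level of 21 immediate early genes was 26949 CPM in alveolar fibroblasts of GAL 2, against 38217 to 38996 in the other libraries, and 15034 CPM in general capillary endothelial cells, against 24990 to 30016. The 13 glucocorticoid response genes summed to 5365 CPM in alveolar fibroblasts of GAL 2, against 6795 to 10498, and to 6265 CPM in adventitial fibroblasts, against 10597 to 11835. The 6 neutrophil markers summed to 173, 171 and 274 CPM in the 3 gates of GAL 2, in the order alveolar fibroblasts, adventitial fibroblasts and general capillary endothelial cells, against 58.7 to 98.8 CPM in the others, and 2, 2 and 3 of the 6 passed the filter there. The 6 markers of alveolar type 2 cells moved with GAL replicate 1 instead, at 349.8 CPM in its alveolar fibroblasts against 27.8 in GAL 2 and 106 and 66.6 in WT. The fibroblast gates held 241 to 714 and 255 to 416 cells per library, and Ptprc, Pecam1 and Epcam, which mark leukocytes, endothelium and epithelium, were at 12.6 CPM or less there beside 1089.7 and 2464 CPM of the collagen gene Col1a2.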

How the data were processed

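Raw UMI counts per gene and barcode, 1 matrix per library, were used as the authors deposited them; per the submitters' processing notes, the tools were STAR, fastp and Seurat (no versions) and the build was GRCm38 (mm10), and the annotation and strand setting of counting were not stated. No barcode held fewer than 500 UMIs. Cells with 500 or more UMIs, 300 or more genes and at most 20% mitochondrial UMIs were kept (scanpy 1.11.5). Scrublet's automatic threshold marked 0.00823% of the cells of GAL replicate 1, so the highest scores up to 0.8% per 1000 cells were removed in every library, a rule set after those values were seen. A cell entered the gate with the most detected markers, at least 3 of 6 and no tie, unless it had 3 or more markers of a type of another lineage.

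Counts were summed per library and gate, since cells are not replicates, and tested with edgeR 4.0.16 (filterByExpr, TMM, quasi-likelihood test, Benjamini-Hochberg over all genes tested, called under 0.05) and, as an alternative, DESeq2 1.42.0. CPM are TMM-scaled, except for Galt and gates that were not tested. An exact permutation test of 2 against 2 libraries cannot go below p = 0.333, so the p-values rest on spread pooled across genes. On simulated data the whole-lung edgeR test recovered 0% of genes changed 2-fold and 41% of those changed 4-fold, the adventitial fibroblast test 37% and 82%. Over the whole lung DESeq2 recovered 27% and 75%, with 54 false calls beside 4 by edgeR. All 10 members are named in every comparison; other clock genes are named as up to 4 per list with the smallest p, unless stated, and 2 genes this rule names are not reported here. The members, lists and tests were chosen with earlier results of these data known. Gene coordinates are from GENCODE on GRCm38.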

Additional observations from a re-analysis of the deposited data

How the results depend on the processing

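No paired analysis was possible because the labels give the libraries no replicate numbers; those used here follow accession order and only name libraries. Over the whole lung, DESeq2 called 29 genes where edgeR called 0, and leaving out 1 library gave 0 to 660 genes, 660 without GAL replicate 2, where Nr1d1 was called. Within gates the 27 genes called in all became 81 with DESeq2, 1036 without a filter on low counts, 43 without doublet removal, 51 with at least 4 markers and 0 with at least 2, and 332 to 969 with 1 library left out, 969 of them without GAL replicate 1. Members were called in 6 of 150 pairs of gate and setting, all without the filter or without GAL replicate 1, in the 3 gates described.

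Some directions turned, and log2 fold changes with 1 library left out are given as lowest and highest. In the whole lung they were -0.27 to 0.073 for Per1 and -0.18 to 0.21 for Clock, and Clock was at -0.063 with equal composition. In general capillary endothelial cells they were -0.34 to 1.89 for Nr1d1, -0.084 to 0.36 for Nr1d2, -1.33 to 0.97 for Per3, -0.20 to 0.42 for Cry1, -1.92 to 1.42 for Dbp, -0.64 to 1.21 for Tef, -0.33 to 0.10 for Arntl and -0.51 to 0.043 for Clock. In alveolar fibroblasts they were -0.10 to 0.36 for Per1, -0.10 to 0.0086 for Per2, -0.32 to 1.43 for Per3, -0.77 to 0.34 for Cry1, -0.28 to 1.96 for Dbp and -0.25 to 0.020 for Clock. In adventitial fibroblasts they were -0.26 to 0.36 for Per1, -0.019 to 0.29 for Per2, -1.14 to 1.06 for Per3 and -1.37 to 0.17 for Arntl. Cry1 in alveolar fibroblasts (0.01) was at -0.077 with DESeq2, -0.00021 without TMM, -0.056 without doublet removal and -0.20 with at least 4 markers, and Per2 there at 0.067 without doublet removal. With at least 2 markers Cry1 was at -0.17 in general capillary endothelial cells and Per1 at -0.093 and -0.26 in alveolar and adventitial fibroblasts. The GAL minus WT difference of Nr1d1 minus Arntl was 0.50 with equal composition against 0.88, and that of Per3 minus Arntl -0.029 against 0.19. The cause of these shifts was not tested. Of 318 values of members within gates under the alternatives, 276 kept direction and side of the threshold, and Nr1d1 in adventitial fibroblasts was positive in each setting run. Members with few UMIs, such as the 14 of Arntl in alveolar fibroblasts of GAL replicate 2, limit every reading of phase.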

Other observations

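Some cell types with too few cells for a test held high levels of the repressor Nr1d1, and others did not. Nr1d1 was at most at 2.47 CPM of all counts in plasma cells and at 57.8 in lymphatic endothelial cells. In ciliated cells (51, 24, 30 and 36 cells in GAL 1, GAL 2, WT 1 and WT 2) it stood at 199, 253, 192 and 236 CPM of all counts, and Per3 at 52.2, 76.3, 115 and 68.1 CPM. In alveolar type 2 cells, which make surfactant, it stood at 141 CPM in GAL 1 and at 145 and 143 CPM in WT, and GAL 2 held 1 such cell with 0 UMIs. In smooth muscle cells (137, 61, 35 and 105 cells) Nr1d1 was at 138, 197, 103 and 92.8 CPM and Dbp at 19.2, 42.0, 7.92 and 14.5 CPM, with GAL 2 the highest for both.

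Over the 56 sums of 14 gates and 4 libraries, each taken as its deviation from the mean of its gate, the genes outside the clock lists most like a member were sought among 5942 with a mean of at least 20 CPM. The points share libraries and depth, and the correlations are a description only. For Nr1d1 they were Atf7ip (Pearson's r = 0.57), C3ar1 (0.55), Antxr2 (0.54), Treml4 (0.53) and Rcsd1 (0.53). In the fibroblast gates, where Nr1d1 was highest among these 14 gates, C3ar1 had at most 4 UMIs per library and Treml4 at most 2. For Dbp they were Tex261 (0.64), Mfhas1 (0.60), Ubald1 (0.58), Arl4d (0.57) and Cxcl12 (0.56). For Arntl they were Junb (0.67), Pim3 (0.67), Tiparp (0.64), Eif4e (0.59) and Zbtb1 (0.57).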
